A study of Mus musculus with 2 samples.

Results

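The miR-15 and miR-16 family, which includes miR-195 and miR-497, was followed through 6 annotated miRNA genes, Mir15a, Mir16-1, Mir15b, Mir16-2, Mir195a and Mir497, of 2202 in the count tables. The members were chosen by name, as the genes of 3 clustered loci, and not by their levels. Earlier results of these data were known when they were chosen. Small RNA was sequenced from hippocampus taken at 14 days from B6CASTF1/J males, in 2 libraries, 1 for each biological replicate of a single group. B6CASTF1/J mice are hybrids of the C57BL/6J and CAST/EiJ strains. The label of each replicate names 3 males by different numbers, but the donor identifier is the same in both, so SDs and p-values speak only of variation among these samples, part of which may be technical. The labels record no treatment, transgene or mutation, and there is no second condition. Replicate 1 held 3793934 counts on miRNA genes and replicate 2 held 2554997. Levels are counts per 1000000 counts on miRNA genes (CPM), given for each library and as mean ± SD (n = 2).

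MicroRNAs of this family pair through a shared seed, the bases near the 5′ end that contact a target messenger RNA, and repress transcripts for cyclins, cyclin-dependent kinases and other cell cycle drivers, as well as the survival factor Bcl2. The Mir15a and Mir16-1 locus lies in Dleu2, a non-coding gene whose human counterpart is often lost in chronic lymphocytic leukaemia. The Mir15b and Mir16-2 locus lies in Smc4, which encodes a subunit of the condensin complex that compacts mitotic chromosomes. Mir195a and Mir497 are known as postnatal brakes on cell division in heart and skeletal muscle. In nervous tissue miR-16 is known to repress the serotonin transporter, and miR-195 to repress Bace1, a protease that cleaves the amyloid precursor protein.

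The 5′ arms are shown because they carry the seed that defines the family. Sequences are those of RefSeq on GRCm38.p6, 5′ to 3′, with bases 2 to 8, the seed, in capitals. All 6 members matched the table, with 12 mature entries of 11 distinct sequences.
miR-15a-5p: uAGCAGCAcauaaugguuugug
miR-16-5p: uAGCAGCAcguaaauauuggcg
miR-15b-5p: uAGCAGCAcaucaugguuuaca
miR-195a-5p: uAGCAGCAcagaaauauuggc
miR-497a-5p: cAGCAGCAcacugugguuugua
The 5 distinct 5′ arms share bases 2 to 9 and differ beyond them. Aligned from base 1, miR-16-5p and miR-195a-5p were identical at 19 of 21 bases, and miR-15a-5p and miR-15b-5p at 18 of 22. The lowest identity was between miR-16-5p and miR-497a-5p, at 11 of 22 bases. Beyond the seed, miR-195a thus resembled miR-16, and miR-15b resembled miR-15a, across the boundaries of the loci.

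Only miR-16-5p is encoded more than once among the members. The same 22 bases stand in the hairpins of both Mir16-1 and Mir16-2, whereas each of the other 5′ arms was found in 1 hairpin of the 2202. The hairpins of the pair are shown because what they do not share is what lets a read be given to one of them. Capitals mark their longest shared run, of 23 bases.
Mir16-1: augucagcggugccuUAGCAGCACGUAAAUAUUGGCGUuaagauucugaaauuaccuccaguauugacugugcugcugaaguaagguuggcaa
Mir16-2: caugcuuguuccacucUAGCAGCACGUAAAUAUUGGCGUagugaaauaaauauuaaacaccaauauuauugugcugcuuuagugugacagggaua
Reads that mapped to several places were put in a row of their own and given to no gene, 26.3% of reads in replicate 1 and 37.5% in replicate 2. A read that lies within the shared run has a place in both hairpins. The 3′ arms of the pair differ and each was found in 1 hairpin. They are shown here with bases 2 to 8 in capitals, the same positions as in the 5′ arms.
miR-16-1-3p: cCAGUAUUgacugugcugcuga
miR-16-2-3p: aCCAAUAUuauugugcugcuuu
The tables count hairpins and do not separate arms, so how much miR-16-5p the tissue held was not measured, and the levels of Mir16-1 and Mir16-2 below are uncertain. Of their windows of 20 bases, 4 of 74 in Mir16-1 and 4 of 76 in Mir16-2 occurred in the other, and the hairpins of Mir15a, Mir15b, Mir195a and Mir497 shared no such window with a miRNA gene elsewhere.

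The members sit close together in pairs. In mm10, Mir15a (ENSMUSG00000093007.1) spans positions 61632027 to 61632110 of chromosome 14 on the minus strand, in an intron of Dleu2. Mir16-1 (ENSMUSG00000092995.1) spans 61631880 to 61631972 on the same strand, 54 bases from Mir15a, and overlaps an exon of at least 1 Dleu2 transcript. Mir15b (ENSMUSG00000065580.2) and Mir16-2 (ENSMUSG00000065606.1) lie on the plus strand of chromosome 3 at 69009772 to 69009835 and 69009902 to 69009996, 66 bases apart in an intron of Smc4. Mir497 (ENSMUSG00000105220.1) and Mir195a (ENSMUSG00000065411.2) lie on the plus strand of chromosome 11 at 70234717 to 70234800 and 70235042 to 70235135, with 241 bases between them. No host gene on their strand is annotated in GENCODE M21. Mir497 overlaps Mir497b, a miRNA gene on the opposite strand.

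All 6 members were detected in both libraries, as were 426 of the 2202 genes, with detection set at 2 CPM. Together they held 0.357% of counts in replicate 1 and 0.423% in replicate 2, or 0.390% ± 0.0468 (SD, n = 2). Among reads that were given to a gene, the Mir195a and Mir497 locus was the highest in both libraries. Reads that fit both miR-16 hairpins are in none of these sums, so those of the other loci are lower limits and the order with such reads added was not measured. Its summed level was 1953 CPM in replicate 1 and 2883 CPM in replicate 2, 2418 ± 658 CPM (SD, n = 2). The Mir15a and Mir16-1 locus followed at 912 and 789 CPM, 850 ± 87.4 CPM, and the Mir15b and Mir16-2 locus at 701 and 556 CPM, 628 ± 103 CPM. With 2 libraries an exact permutation test of paired differences goes no lower than p = 0.5, so these differences are given without a test. The ranges of the 3 loci over the libraries did not overlap, with Mir195a and Mir497 well above the other loci in both.

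Mir195a, whose product resembles miR-16, was the highest member at 999 CPM in replicate 1 (95% exact interval 968 to 1032) and 1603 CPM in replicate 2 (1554 to 1653). Its mean of 1301 ± 427 CPM placed it 98th of all genes. Mir497 stood at 954 CPM (923 to 985) and 1280 CPM (1237 to 1325), 1117 ± 231 CPM, in rank 107. Mir195a was above Mir497 within each library, although their ranges over the libraries overlapped. The intervals cover counting error within a library only. Reads copied by PCR from the same molecule are not independent, and where such copies were counted the intervals are too narrow. CPM of different miRNAs were compared without division by length, since the mature products are of 21 to 22 bases, and any unequal capture of different sequences was not corrected.

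Mir15b, in the Smc4 intron, was next at 650.0 CPM in replicate 1 (95% exact interval 625 to 676) and 487 CPM in replicate 2 (461 to 515), 569 ± 115 CPM. Mir15a had 617 CPM (592 to 642) and 368 CPM (345 to 392), 492 ± 176 CPM. Mir16-1 had 296 CPM (279 to 314) and 421 CPM (396 to 447), 358 ± 88.4 CPM. Within each library Mir15b was above both other genes, whereas Mir15a was above Mir16-1 in replicate 1 and below it in replicate 2. Mir16-2 was lowest at 51.1 CPM (44.2 to 58.9) from 194 counts and 68.5 CPM (58.7 to 79.4) from 175 counts, 59.8 ± 12.3 CPM, in rank 230. It was below each other member in both libraries. Even this level was above that of 89.6% of the annotated miRNA genes, many of which had no count. Reads that fit both miR-16 hairpins are missing from Mir16-1 and Mir16-2. Their place among the members therefore holds only for reads that were given to a gene.

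**Figure D1:**
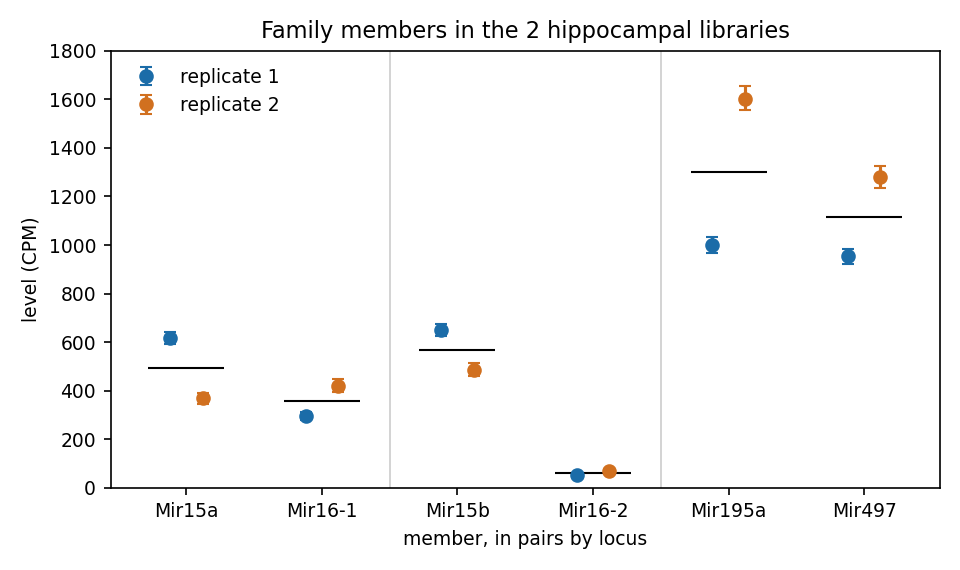
Level of each member (CPM, linear axis) in each library, grouped by locus. Points are libraries, error bars 95% exact intervals for counting error, and black lines the mean of the 2 libraries. Mir195a and Mir497 lie above the other members in both libraries, and Mir16-2 is lowest at 51.1 and 68.5 CPM. Reads that fit both miR-16 hairpins are not counted.

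Of the family's own counts, Mir195a and Mir497 took 54.8% in replicate 1 (95% exact interval 53.9 to 55.6) and 68.2% in replicate 2 (67.3 to 69.1). Mir15a and Mir16-1 took 25.6% (24.8 to 26.3) and 18.7% (17.9 to 19.4). Mir15b and Mir16-2 took 19.7% (19.0 to 20.3) and 13.1% (12.5 to 13.8). The Mir195a and Mir497 locus was thus 2.14 times the Mir15a and Mir16-1 locus in replicate 1 and 3.66 times in replicate 2. Over the Mir15b and Mir16-2 locus it was 2.79 and 5.19 times as high. Reads that fit both miR-16 hairpins are missing from the other loci, and with them these ratios could be lower. The lower 2 loci differed by less, 1.30-fold in replicate 1 and 1.42-fold in replicate 2. That order rests on Mir16-1 and Mir16-2, which share an arm: of the remaining members, Mir15b was above Mir15a in both libraries. Their mean log2 ratio, Mir15a over Mir15b, was -0.24 ± 0.23 (SD, n = 2), against 0.44 ± 0.088 for the whole loci.

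**Figure D2:**
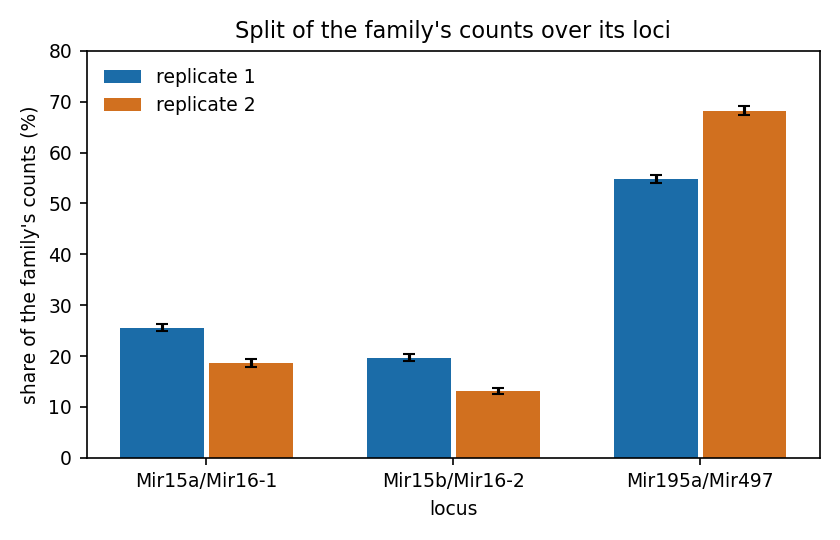
Share of the family's counts (%) held by each locus in each library. Bars are libraries and error bars 95% exact intervals for counting error. The Mir195a and Mir497 locus holds 54.8% and 68.2%, more than the other loci together in both libraries. Reads that fit both miR-16 hairpins are not counted, so the shares of the other loci could be higher.

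Genes of a locus were not at equal levels. Mir15a was 2.08 times Mir16-1 in replicate 1 (95% exact interval 1.94 to 2.24) and 0.874 times in replicate 2 (0.8003 to 0.955), so that the order of the pair turned between the libraries. Mir15b was 12.7 times Mir16-2 in replicate 1 (11.0 to 14.8) and 7.11 times in replicate 2 (6.07 to 8.38). Mir195a and Mir497 were nearest to each other, at 1.05 (1.00 to 1.10) and 1.25 (1.20 to 1.31). Of the pairs, this is the one with no arm in common with another locus. Reads given to no gene because they fit both miR-16 hairpins would be missing from the ratios of the other pairs, and their number was not measured.

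The libraries were compared to see how far each member held its level between replicates. Mir15a and Mir15b were higher in replicate 1, while Mir16-1, Mir16-2, Mir195a and Mir497 were higher in replicate 2. Mir15a was 1.68-fold higher in replicate 1 (adjusted p = 1.59e-42) and Mir15b 1.33-fold (adjusted p = 1.88e-16) in a two-sided exact binomial test of counts with Benjamini-Hochberg adjustment over all 507 genes with at least 10 counts in sum. In the same exact test Mir195a was 1.60-fold higher in replicate 2 (adjusted p = 2.83e-96), Mir16-1 1.42-fold (adjusted p = 8.20e-16), Mir497 1.34-fold (adjusted p = 3.08e-33) and Mir16-2 1.34-fold (adjusted p = 0.0123). All 6 members thus passed, against 52.1% of all genes tested. Of all genes tested 25.2% were higher in replicate 1, where 2 members were, and 26.8% in replicate 2, where 4 were. The members have a median level of 530 CPM against 34.3 CPM for all genes tested, and a higher count lets a smaller difference pass. Where only genes with at least 50 counts in sum were tested, 71.9% passed. With all reads as the denominator, instead of those on miRNA genes, Mir15b no longer passed the exact test (log2 ratio 0.056, adjusted p = 0.370). Of all reads, 27.5% in replicate 1 and 35.3% in replicate 2 were counted on miRNA genes, while 41.3% and 20.7% did not map. The test compares these libraries, not conditions, and covers counting error only. For Mir16-1 and Mir16-2 it covers only the reads that were given to 1 of the hairpins.

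With the spread between replicates that edgeR estimated over the 507 genes tested, a coefficient of variation of 0.376, none of the 6 members passed. That spread comes from the same 2 libraries, so a gene with a typical ratio cannot pass. The result says only that the members' ratios were not unusual among the genes tested. The members' unadjusted p-values in edgeR's exact negative binomial test lay between 0.345 and 0.604, 0 of 6 under 0.05. After adjustment 0.394% of the 507 genes passed. The coefficient of variation of the members themselves was from 20.2% for Mir15b to 35.7% for Mir15a. On the log2(CPM + 0.5) scale, the absolute ratio of the libraries had a median of 0.42 over the 328 genes that averaged at least 10 CPM. The ratios of Mir15b, Mir16-2 and Mir497 were close to this median, 2 of them below it, and the other members were farther from 0, up to 0.74 for Mir15a, a size that 79.3% of those genes did not reach. The family as a whole was 1.19-fold higher in replicate 2, a smaller step than that of any single member.

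**Figure D3:**
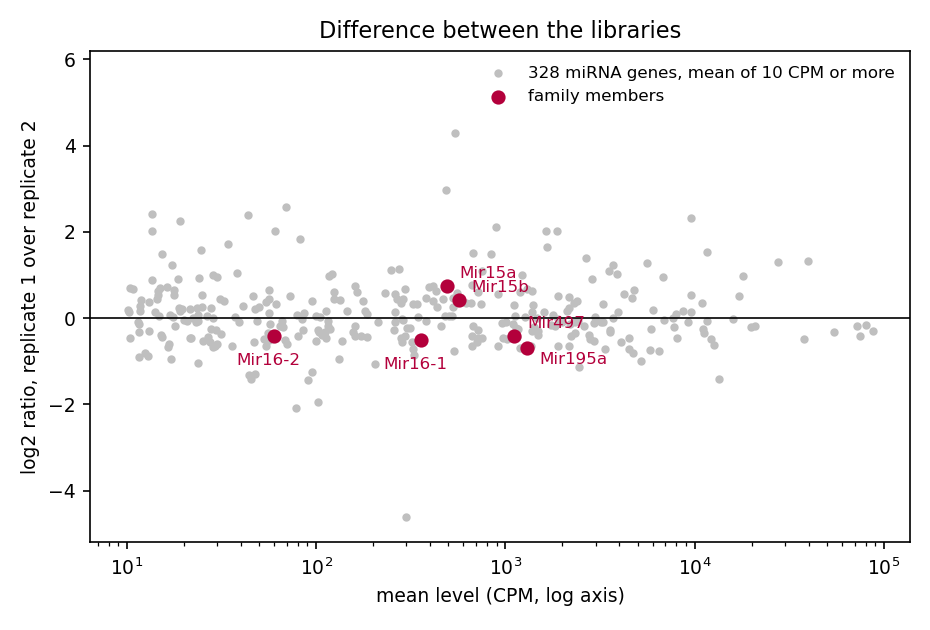
Log2 ratio of replicate 1 to replicate 2 against mean level (CPM, log axis). Grey points are the 328 miRNA genes that averaged at least 10 CPM, and red points the 6 members. The members lie within the cloud, from -0.68 for Mir195a to 0.74 for Mir15a.

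Within both loci that carry a miR-16 gene, the miR-15 gene was higher in replicate 1 and the miR-16 gene in replicate 2. The miR-16 genes share their 5′ arm, and reads that fit both hairpins are not counted. Reads that mapped to several places were 26.3% in replicate 1 and 37.5% in replicate 2. Their part in these differences was not tested. Log2 ratios of Mir15a and Mir16-1 were 0.74 and -0.51, a difference of 1.25. Those of Mir15b and Mir16-2 were 0.42 and -0.42, a difference of 0.83. Mir195a and Mir497 went the same way, at -0.68 and -0.42, a difference of 0.26. Such divergence was common among neighbouring miRNA genes. Among 59 neighbouring pairs of miRNA genes on 1 strand, at most 1000 bases apart and each averaging at least 10 CPM, 26 pairs (44.1%) had ratios on opposite sides of 0. The median difference over these pairs, which include the family's own, was 0.52, with quartiles of 0.20 and 0.92. A smaller difference than that of Mir15a and Mir16-1 was found in 86.4% of the pairs, and than that of Mir195a and Mir497 in 32.2%.

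**Figure D4:**
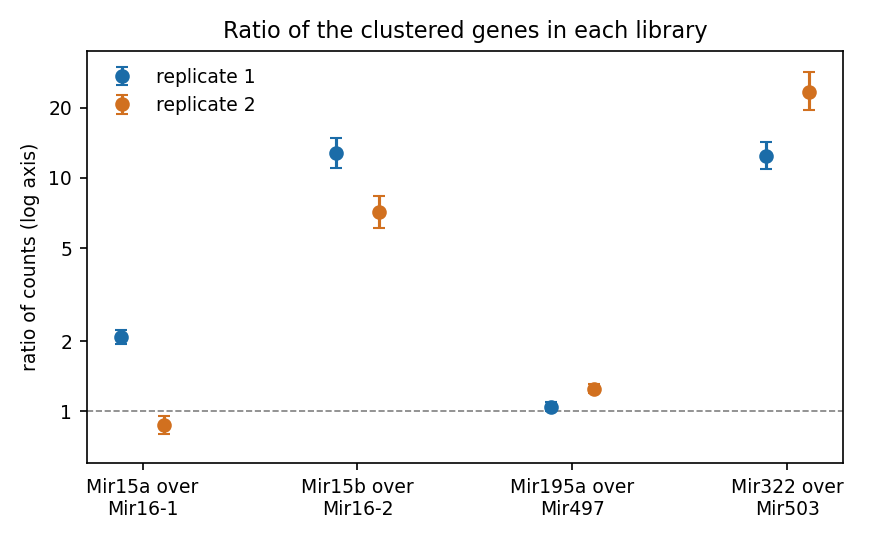
Ratio of counts of the genes of each cluster (log axis) in each library, with 95% exact intervals for counting error. The dashed line marks equal counts. Mir15a over Mir16-1 falls on both sides of it, at 2.08 and 0.874, and Mir322 over Mir503 is shown beside the family's loci.

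The seed of the family, AGCAGCA, occurred in 11 of 1738 mature entries of the RefSeq table, from 11 genes. Beyond the 6 members these were Mir322, Mir195b, Mir6342, Mir6353 and Mir6419. Mir322, the mouse counterpart of human MIR424, lies on the X chromosome at 53054255 to 53054349 and was as abundant as the members. It had 814 CPM in replicate 1 and 1118 CPM in replicate 2, 966 ± 215 CPM (SD, n = 2), between Mir497 and Mir15b. Its 5′ arm is printed to set it beside those above, with the seed in capitals.
miR-322-5p: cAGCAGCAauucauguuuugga
Mir322 was 1.37-fold higher in replicate 2, as Mir195a and Mir497 were (adjusted p = 2.12e-33, exact binomial test). Mir503, which lies 200 bases from Mir322 and has a seed that differs from the family's in its last base, had 65.6 and 47.7 CPM and was 1.37-fold higher in replicate 1 (adjusted p = 0.00912, exact binomial test).

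Mir195b, Mir6342, Mir6353 and Mir6419 had 0 counts in both libraries, as did Mir1907 and Mir497b. Such a count allows up to 0.791 CPM in replicate 1 and 1.17 CPM in replicate 2, from 3 counts of the total, for reads that map to 1 place. With Mir322 added, the counted genes with the family's seed held 0.438% of counts in replicate 1 and 0.535% in replicate 2.

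Other miRNAs tied to the cell cycle gave a mixed picture. The list held 35 names, of which 34 matched a gene in the tables, and 30 were detected. It includes the growth-promoting miR-17/92 and miR-106b/25 clusters, the p53-induced miR-34 family and miR-221 and miR-222, which repress the cell cycle inhibitor p27. Of 30 tested, 12 were higher in replicate 1 and 11 in replicate 2 in the exact binomial test, 76.7% in either direction against 52.1% of all genes tested (25.2% and 26.8% by direction). The listed genes tested had a median level of 267 CPM, above the 34.3 CPM of all genes tested. Of genes with at least 50 counts in sum, 71.9% passed when tested alone. The median log2 ratio was 0.09 for the listed genes tested, against 0.02 for all genes tested. Mir17, of the miR-17/92 cluster, stood at 2205 ± 137 CPM (SD, n = 2), above Mir195a and above Mir497, each taken singly. Mir93, of the miR-106b/25 cluster, stood at 4490 ± 982 CPM, above the summed family at 3897 ± 468 CPM. Mir34a was at 375 CPM in replicate 1, above Mir16-1, and at 171 CPM in replicate 2, below it. Reads that fit both miR-16 hairpins are missing from the family's sum and from Mir16-1. Their order against Mir93 and Mir34a therefore holds only for reads that were given to a gene. Mir222 stood at 1635 ± 1395 CPM, with a spread wider than that of any member.

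The genes with the most similar levels in the 2 libraries were sought outside the family, with the members left out. Of the other genes with the family's seed only Mir322 had counts, so no other could be near. Mir322 was not among the 2 nearest to any member. By the Euclidean distance in log2(CPM + 0.5) over the 2 libraries, Mir671 and Mir708 were nearest to Mir195a, at distances of 0.12 and 0.18, and Mir134 and Mir3099 to Mir497, at 0.072 and 0.15. Mir381 and Gm23450 were nearest to Mir15b, Mir339 and Mir3102 to Mir15a, Mir1843b and Mir350 to Mir16-1, and Mir7-1 and Mir135a-2 to Mir16-2. With 2 libraries this likeness reflects a level and a ratio and no pattern across conditions.

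The tissue holds several cell types, and in bulk RNA fewer cells of a type and less RNA per cell cannot be told apart. Of the neuronal marker genes 5 of 8 were detected, led by Mir132 at 17266 and 5947 CPM and Mir128-1 at 4364 and 7285 CPM. The Mir124a genes had 0 to 12 counts, but reads that map to several places were given to no gene. Their low counts therefore do not show a low level. Summed markers of oligodendrocytes were at 4060 CPM in replicate 1 and 1247 CPM in replicate 2 (3 of 3 detected). Of these Mir219a-1 was slightly lower in replicate 1, at 16.9 and 19.2 CPM. Summed markers of choroid plexus and ciliated cells were at 1962 and 916 CPM (3 of 3). Summed red cell markers were at 75.4 and 192 CPM (3 of 3 detected), mostly from Mir451a at 41.9 and 162 CPM, while Mir486 was higher in replicate 1, at 24.5 and 12.9 CPM. Endothelial markers were at 11308 and 7829 CPM, all of it from Mir126a since Mir126b had no count (1 of 2 detected). Mural markers were at 3024 and 3248 CPM (2 of 2), and those of microglia and leukocytes at 1781 and 1696 CPM (5 of 5). Members of both lists went opposite ways. Mir143 was higher in replicate 2, and Mir145a slightly higher in replicate 1, at 191 and 179 CPM. Mir150 and Mir155 were higher in replicate 2, and Mir142, Mir146 and Mir223 in replicate 1. The part of these cell types in the differences between the libraries was not tested.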

How the data were processed

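The 2 tables of raw counts of reads per miRNA gene, 1 for each library, were used as the authors deposited them, not normalized. They are on mm10 with GENCODE M21, per the accompanying text. Aligner, counter and trimming: not given in the sources used here. Of the 3 count columns (either strand, gene's strand, opposite strand), the gene's strand was used, told from its smaller number of reads outside genes. The 4 rows of reads given to no gene stayed out of totals.

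Positions, hosts and hairpins came from GENCODE M21, and mature sequences from RefSeq (GRCm38.p6). No genome was searched, so copies of an arm outside annotated miRNA genes were not looked for. Intervals are exact (Clopper-Pearson, 95%). Counts of the libraries were compared by an exact binomial test, two-sided, with library totals as the sizes (at least 10 counts in sum, Benjamini-Hochberg over all genes, threshold 0.05), since edgeR's quasi-likelihood test has no contrast in 1 group. edgeR 4.0.16 (common dispersion, intercept only) in R 4.3.3 gave the replicate spread, and DESeq2 1.42.0 alternative size factors. Python 3.11.15, scipy 1.17.1, pandas 2.3.3, numpy 2.4.6 and matplotlib 3.10.9 did the rest. The tests were tested on simulated data. All 6 members are named, with the 2 nearest genes of each by level. Other genes come from lists of seed relatives, cell cycle miRNAs and cell type markers. Members and lists were chosen with earlier results of these data known.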

Additional observations from a re-analysis of the deposited data

How the results depend on the processing

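Mir195a and Mir497 remained the highest locus under each alternative run, none of which adds back reads that map to several places, and most log2 ratios of single members kept their side of the threshold (the exceptions follow). In the column that ignores strand, Mir497 was at 0, since reads where it overlaps Mir497b were given to neither. The family's share there was 0.295%, that of Mir195a and Mir497 1383 CPM and 46.3% of the family, with 30.8% and 22.8% for the Mir15a and Mir15b loci, and mean log2 ratios of 0.58 and 1.02 over these loci (1.48 and 1.93 as reported). With all reads as the denominator the family held 0.124%, and the Mir195a, Mir15a and Mir15b loci 777, 265 and 194.5 counts per 1000000 reads, and without the 10 most abundant genes 0.806%, 5017, 1750.0 and 1291 counts per 1000000, by construction. All reads as the denominator also moved the median log2 ratio of all genes tested from 0.02 to -0.30. Mir15b then no longer passed the exact binomial test (0.056, adjusted p = 0.370), leaving 5 of 6 members. Its adjusted p under the other settings of that test was at most 4.12e-15.

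Without Mir16-1 and Mir16-2, chosen after seeing the data, the Mir15a locus was at 492 CPM and 14.5% of the family, the Mir195a locus was 2.32 log2 units above it, and the order of the lower loci turned (-0.24). With edgeR's common dispersion 0 members passed, 0 of 6 at an unadjusted p under 0.05, and 2 of 507 genes against 264 in the exact binomial test. That dispersion comes from the same 2 libraries, so a gene with a typical ratio cannot pass. Library scaling (TMM, DESeq2), pseudocounts and count filters changed no member's call. Leaving out a library gave 0.357% to 0.423% for the family. Having only 2 libraries limits each spread given here.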
